A study of Mus musculus with 56 samples.

Results

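This account follows 28 genes of cholesterol synthesis and its sterol feedback through the livers of male CD-1 mice given locked nucleic acid (LNA) gapmers, short antisense oligonucleotides that lead RNase H to cut a matching RNA. A gene was taken where a probe set of the array was annotated to its symbol and to no other. In all, 27 of the 28 genes had such a probe set, among 18194 genes named in that way, and Acat2 is not measured here. The 27 genes had 58 probe sets, and the brightest of each gene was used. Of the 27, 17 encode enzymes of the pathway.

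The mice were outbred, 6 to 8 weeks old at the first dose, and injected under the skin with 25 mg/kg of gapmer in saline or with saline alone, the vehicle. The 3 gapmers are called severely toxic (HTS-3), toxic (TS-2) and non-toxic (NTS-1) by the submitters, and no target is named in the labels. After a single dose, livers were taken at 8 h (HTS-3, n = 3; TS-2, n = 4; NTS-1, n = 3; vehicle, n = 3), at 16 h (HTS-3, n = 4; TS-2, n = 3; NTS-1, n = 4; vehicle, n = 3) and at 72 h (TS-2, n = 4; NTS-1, n = 3; vehicle, n = 3). No HTS-3 mouse reached 72 h. After doses on days 1, 4, 8 and 11, livers were taken on day 14 (TS-2, n = 5; NTS-1, n = 4; vehicle, n = 10). In the single-dose study the 3 or 4 mice profiled in a group were picked from 10 for the most marked liver cell enlargement, so they are not a random draw from the dosed animals. At what time of day mice were dosed and sampled is not stated in the labels.

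Hepatocytes make cholesterol from acetyl-CoA through mevalonate, squalene and lanosterol. When sterol in the endoplasmic reticulum is low, the escort protein SCAP carries the transcription factor SREBP2 (gene Srebf2) to the Golgi, where it is cut and freed to switch on the enzymes, while INSIG1 and INSIG2 hold SCAP back when sterol is plentiful. Oxysterols act the other way through the receptor LXR alpha (Nr1h3), which switches on sterol export (Abca1, Abcg1) and the ubiquitin ligase MYLIP, which removes lipoprotein receptors from the cell surface. The synthesis genes and several of their regulators follow feeding and time of day in liver.

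The regions before the start sites were read for short sequence motifs. The sterol regulatory element core TCACNCCAC, a form of the site bound by SREBP, and CCAAT, the box bound by NF-Y, which works beside SREBP at many sterol genes, were searched on both strands in the 250 bases before each start. RefSeq (GRCm38.p6) gave 30 start sites for 23 of the 28 genes. The motifs share no overlap here, and capitals mark them. Of 27 measured members, 4 had a higher mean at 8 h after HTS-3, and Lpin1 had the highest change of these. The 3 mevalonate genes with the lowest mean change in that comparison, both INSIG genes and Lpin1 are shown:
Hmgcs1, chr13:119690101-119690350, plus strand: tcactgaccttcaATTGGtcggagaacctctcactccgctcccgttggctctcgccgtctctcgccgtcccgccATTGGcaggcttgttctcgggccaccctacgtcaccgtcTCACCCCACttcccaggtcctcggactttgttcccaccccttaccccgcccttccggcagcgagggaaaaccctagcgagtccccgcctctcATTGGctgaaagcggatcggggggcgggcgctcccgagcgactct
Mvd, chr8:122443423-122443672, minus strand: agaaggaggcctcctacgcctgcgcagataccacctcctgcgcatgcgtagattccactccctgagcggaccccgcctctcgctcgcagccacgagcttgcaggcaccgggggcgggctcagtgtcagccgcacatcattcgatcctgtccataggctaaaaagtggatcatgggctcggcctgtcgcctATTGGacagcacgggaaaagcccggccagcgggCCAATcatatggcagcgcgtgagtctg
Idi1, chr13:8885356-8885605, plus strand: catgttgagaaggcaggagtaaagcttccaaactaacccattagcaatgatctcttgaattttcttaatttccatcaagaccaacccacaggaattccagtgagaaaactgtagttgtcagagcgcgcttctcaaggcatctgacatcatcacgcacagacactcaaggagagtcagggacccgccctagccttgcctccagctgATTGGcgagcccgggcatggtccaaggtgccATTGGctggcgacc
Insig1, chr5:28071162-28071411, plus strand: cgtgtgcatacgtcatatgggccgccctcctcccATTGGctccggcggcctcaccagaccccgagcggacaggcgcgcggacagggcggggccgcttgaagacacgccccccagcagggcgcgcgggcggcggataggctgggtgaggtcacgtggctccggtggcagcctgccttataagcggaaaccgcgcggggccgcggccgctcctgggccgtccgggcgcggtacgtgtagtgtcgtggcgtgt
Insig2, chr1:121332590-121332839, minus strand: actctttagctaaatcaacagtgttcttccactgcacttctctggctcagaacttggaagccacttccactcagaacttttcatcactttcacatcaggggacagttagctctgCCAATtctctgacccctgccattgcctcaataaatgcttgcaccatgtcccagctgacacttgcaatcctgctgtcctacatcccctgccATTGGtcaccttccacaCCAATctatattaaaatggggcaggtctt
Lpin1, chr12:16610967-16611216, minus strand: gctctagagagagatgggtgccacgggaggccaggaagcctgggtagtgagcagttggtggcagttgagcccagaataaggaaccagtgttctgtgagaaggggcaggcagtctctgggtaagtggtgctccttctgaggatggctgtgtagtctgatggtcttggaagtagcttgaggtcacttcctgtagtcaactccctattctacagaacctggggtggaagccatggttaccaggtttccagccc
TCACNCCAC lay before 1 of the 30 starts, that of Hmgcs1, against 1.05% of all 32851 promoters in the table. CCAAT lay before 18 of the 30 (60.0%), against 33.8% of all promoters. The GC box GGCGGG, searched likewise but not marked above, lay before 19 of the 30 (63.3%), against 32.5% of all promoters. Hmgcs1 and the most upstream of the 3 listed Insig2 starts each held 3 CCAAT boxes, Mvd and Idi1 held 2 and Insig1 held 1. The other Insig2 starts held none. None of these motifs was in the Lpin1 window, nor before any listed start of Scap, Nr1h3 or Acat2. Whether the motifs go with the changes was not tested. A match in these letters is a description of the sequence and not a bound site.

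All values are array intensities on a linear scale after the authors' normalization, and a log2 change is the mean log2 intensity of a gapmer group minus that of the vehicle mice of the same time. Single-dose and 2-week arrays were fitted apart with limma, and a gene passes the test at a Benjamini-Hochberg adjusted p under 0.05 over all genes of that fit. As a check of the tissue, none of the 7 hepatocyte markers was under an intensity of 32 throughout any group. Within groups, arrays correlated at 0.935 to 0.99 in the single-dose study and at 0.913 to 0.99 in the 2-week study, and no 2 of the 56 arrays were identical. Srebf2 itself was under 32, the level taken as dim, on all 37 single-dose arrays, so its level can be read only at 2 weeks. For HTS-3 8 h mouse 3, a single label gives 16 h while its title and source give 8 h. Arntl, a clock gene, had an intensity of 6.77 in that liver, against 7.48 in each of HTS-3 8 h mice 1 and 2 and 258 to 421 over the HTS-3 16 h group. Dbp, a clock output gene, had 9026 there, against 13726 and 8991 in HTS-3 8 h mice 1 and 2 and 103 to 147 over the 16 h group. The mouse was kept at 8 h.

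**Figure D1:**
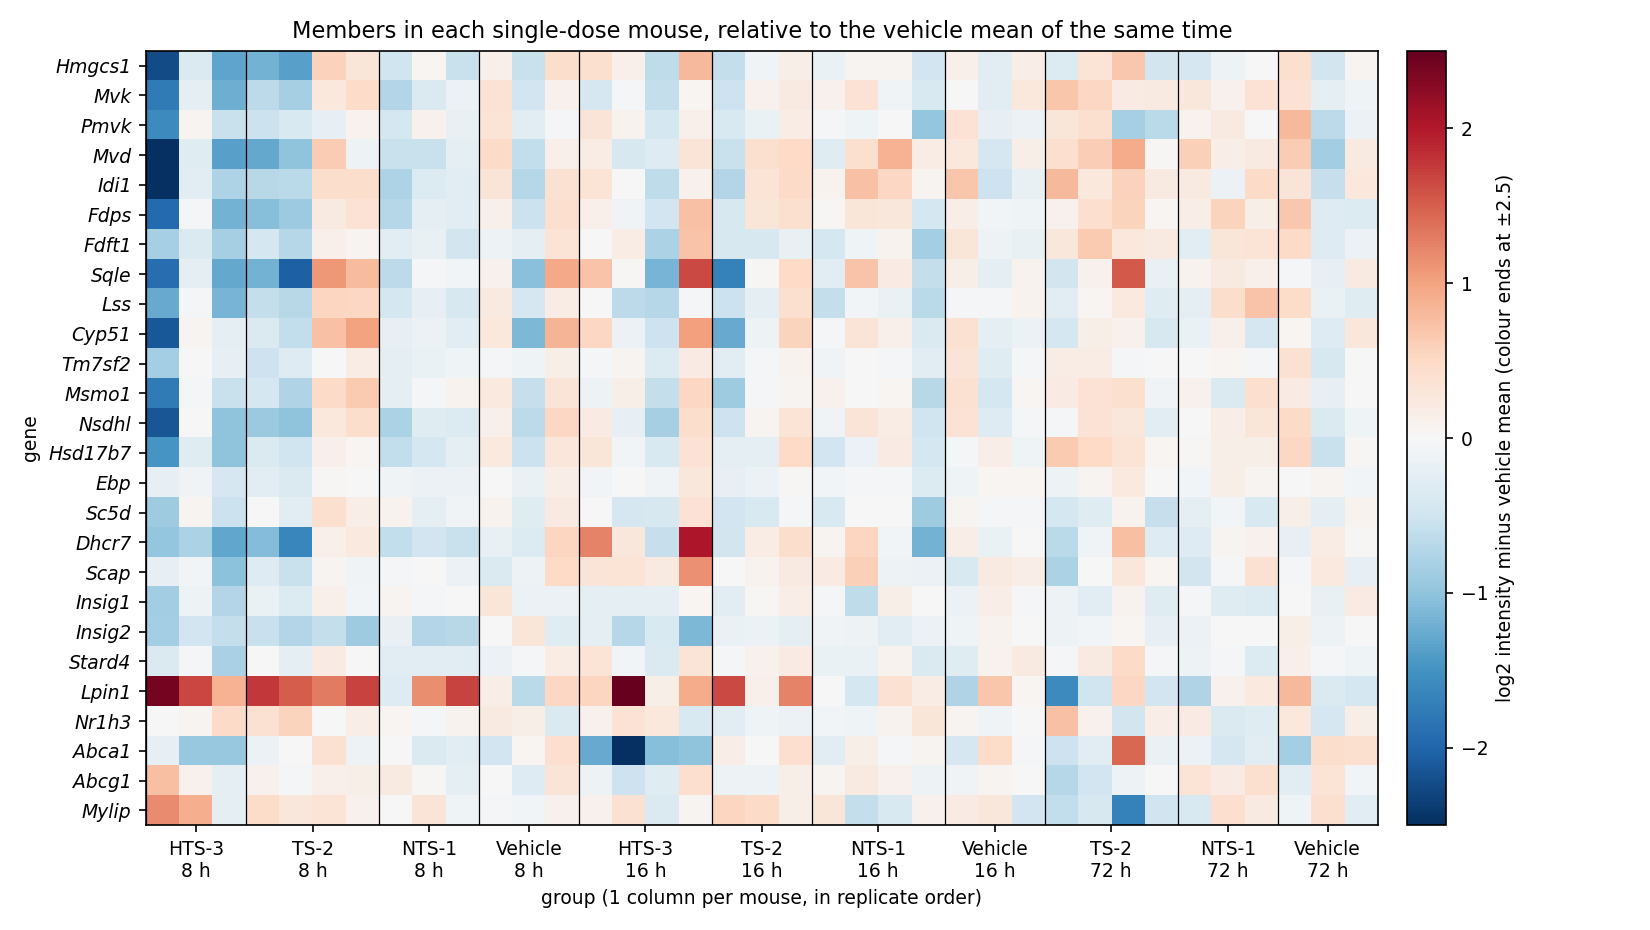
Log2 intensity of 26 measured members, all but Srebf2, minus the vehicle mean of the same time, in each of the 37 single-dose mice (columns, by group) with genes in pathway order (rows); blue is below vehicle and red above. The first and the third HTS-3 8 h mice are blue down the enzyme rows, the HTS-3 8 h mouse between them is close to vehicle, and Lpin1 is red in all 3.

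At 8 h after HTS-3 the synthesis pathway was lower as a whole in 2 of 3 livers. Livers with most enzymes below every vehicle mouse also occurred in other gapmer groups, NTS-1 at 16 h included, as given further on. All 17 enzymes had a lower mean than in vehicle livers, with a median log2 change of −0.93. Over the members, 23 of 27 were lower, with a median of −0.70, where the median of all genes was 0 and 48.1% of the 9134 genes reaching 32 on at least 3 arrays were lower. No member passed the test, beside 0.588% of all genes in that comparison. At an unadjusted p under 0.05 there were 13 of 27 members, against 11.4% of all genes. The single-dose shares are over all 18194 genes, dim ones included, and not over the 9134 alone. Without HTS-3 8 h mouse 2, 9 members passed the test, all lower: Hmgcs1, Mvk, Mvd, Idi1, Fdps, Nsdhl, Hsd17b7, Insig1 and Insig2, with log2 changes of −2.22 (Mvd) to −0.72 (Insig2), where 3.01% of all genes passed in that fit. Mouse 2 was the HTS-3 liver nearest to vehicle (enzyme median −0.09), so the rise to 9 follows from leaving it out and is no separate evidence. That fit holds 2 HTS-3 mice. Leaving out any other HTS-3 or vehicle mouse of 8 h gave 0 or 1.

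Mevalonate genes had the lowest means. Hmgcs1, which joins acetyl groups into HMG-CoA, had intensities of 2853, 10454 and 5324 in HTS-3 livers, against 14532, 9102 and 18029 in vehicle livers. Mouse 2 of the HTS-3 group lay inside the vehicle range and the other 2 below it, and the log2 change was −1.30 ± 0.47 (SE), with a limma adjusted p of 0.289. Mvd, which decarboxylates mevalonate diphosphate, had 34, 237 and 114 in HTS-3 livers, against 407, 191 and 317 in vehicle livers, a log2 change of −1.58 ± 0.52 (adjusted p = 0.225). Its first HTS-3 value stood just above the dim level, and again HTS-3 mouse 2 alone overlapped the vehicle livers. Mvk, the mevalonate kinase, had 148, 425 and 216 in HTS-3 livers, against 644, 362 and 543 in vehicle livers (log2 change −1.08 ± 0.33, adjusted p = 0.184). Idi1, the isomerase that makes the activated isoprene unit, had 1853, 11169 and 7847 in HTS-3 livers, against 16794, 8231 and 17609 in vehicle livers (log2 change −1.30 ± 0.49, adjusted p = 0.289). As with Mvk, the overlap came from HTS-3 mouse 2 and from vehicle mouse 2, the low one of the controls.

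The mevalonate enzymes had a median log2 change of −1.30, the 4 enzymes from farnesyl to lanosterol −0.94 and the 8 later sterol enzymes −0.77. Among the 17 enzymes the 2 groups did not overlap at 2, both lower in HTS-3, where 3.29% of all genes were lower without overlap. Fdft1, squalene synthase, had 6505, 8993 and 6567 in HTS-3 livers, against 10692, 9913 and 14766 in vehicle livers. Dhcr7, a last-step reductase, had 1076, 1217 and 850 in HTS-3 livers, against 1839, 1655 and 3047 in vehicle livers. For these 2 genes mouse 2 lay below every vehicle liver as well, with a change of −0.68 ± 0.29 for Fdft1 (adjusted p = 0.337) and −1.02 ± 0.51 for Dhcr7 (adjusted p = 0.468). Hsd17b7, a sterol ketoreductase, had 550, 1237 and 756 in HTS-3 livers, against 1814, 1055 and 1867 in vehicle livers (log2 change −0.93 ± 0.29, adjusted p = 0.184). Insig2, described further on, Mvk and Hsd17b7 had the smallest p among the members in this comparison.

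The brightest members of the roles other than the mevalonate part and the sterol sensors were as follows. Fdps, which makes farnesyl diphosphate, had 2975, 11171 and 5037 in HTS-3 livers, against 12453, 7853 and 15221 in vehicle livers (log2 change −1.05 ± 0.41, adjusted p = 0.289), with HTS-3 mouse 2 again within the vehicle range. Ebp, the sterol isomerase, had 18188, 19752 and 15733 in HTS-3 livers, against 20871, 18676 and 23674 in vehicle livers, the smallest change among the enzymes (−0.24 ± 0.12, adjusted p = 0.446). Nr1h3, the LXR alpha gene, had 2064, 2170 and 2894 in HTS-3 livers, against 2412, 2283 and 1605 in vehicle livers, and the groups overlapped. Stard4, which carries sterol between membranes, had 4438, 5564 and 3240 in HTS-3 livers, against 5171, 5547 and 6462 in vehicle livers (log2 change −0.40 ± 0.19, adjusted p = 0.389).

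The median over the 17 enzymes of each mouse's difference from the vehicle mean gave −1.76, −0.09 and −1.002 (log2) for HTS-3 mice 1, 2 and 3, against 0.13, −0.54 and 0.32 for vehicle mice 1, 2 and 3. HTS-3 mice 1 and 3 lay below every vehicle mouse and HTS-3 mouse 2 lay within their range. In 11 members with 2 or more probe sets over 32 on all arrays, the probe sets gave the same sign. A fit that weights arrays by their quality, which gives mice unlike the rest less say, put the members' median at −0.060 and left Insig2 past the test, at −0.58 (adjusted p = 0.0205). The summed intensity of 9 Kupffer cell and macrophage markers was 23830 to 40900 in HTS-3 livers, against 14920 to 17860 in vehicle livers, with 9 of 9 higher, none past the test and Marco alone under 32 in all vehicle livers. The summed hepatocyte markers were 350900 to 392200 in HTS-3 livers, against 386700 to 435600 in vehicle livers. In whole liver, fewer hepatocytes and less RNA per hepatocyte cannot be told apart, and the part of other cells in these changes was not tested.

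**Figure D2:**
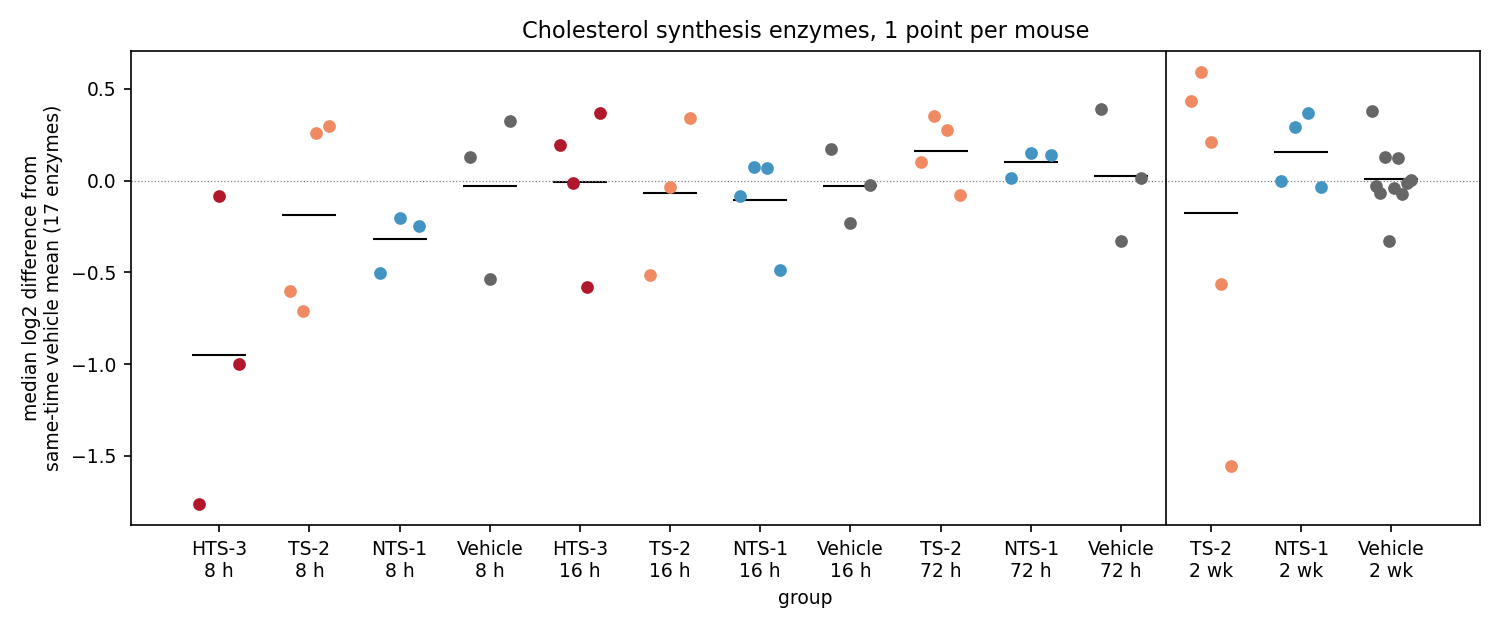
Median over 17 synthesis enzymes of the log2 difference from the same-time vehicle mean, 1 point per mouse and a line at the group's mean, with single-dose groups left and 2-week groups right of the vertical line. HTS-3 8 h mice sit at −1.76, −0.09 and −1.002, TS-2 8 h mice split into 2 low and 2 high, and 1 TS-2 2 wk mouse sits at −1.56.

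After TS-2 and NTS-1 the enzyme means were nearer to vehicle at 8 h. After TS-2, 15 of 17 enzymes had a lower mean, with a median log2 change of −0.20, and no member passed limma's test, beside 0.044% of all genes, while 2 (Insig2 and Lpin1) had an unadjusted p under 0.05, beside 5.18%. Ebp came next by p (log2 change −0.15, adjusted p = 1). The enzyme medians of TS-2 mice 1 to 4 were −0.60, −0.71, 0.26 and 0.30, so that 2 mice lay below every vehicle mouse and 2 were near the highest. Sqle, squalene epoxidase, had 593, 330, 2853 and 2326 in those TS-2 mice, against 1451, 656 and 2601 in vehicle mice. After NTS-1, 17 of 17 enzymes had a lower mean, with a median of −0.33 and enzyme medians of −0.51, −0.21 and −0.25 in mice 1 to 3, all inside the vehicle range. No member passed the test after NTS-1 at 8 h, beside 0.61% of all genes, and Insig2 alone had an unadjusted p under 0.05, beside 6.4%. Stard4 (log2 change −0.28) and Hsd17b7 (−0.43) came next by p, both at an adjusted p of 1. The 3 contrasts share the same vehicle mice, of which mouse 2 was low, so their agreement in sign is not independent.

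Set against the other gapmers at 8 h, HTS-3 again had 17 of 17 enzymes lower, with a median of −0.75 against TS-2 and −0.55 against NTS-1. Over all members the median was −0.47 against either. Against NTS-1 it was −0.16 without HTS-3 mouse 1 and 0.036, of the other sign, with array weights; against TS-2 it was −0.30 without HTS-3 mouse 1 and −0.081 with array weights. No member passed the test in either comparison, beside 0.264% and 0.572% of all genes, and 9 and 3 members had an unadjusted p under 0.05, beside 6.49% and 8.71% of all genes. By p, Mvk (log2 difference −0.88), Hsd17b7 (−0.75) and Insig1 (−0.47) led against TS-2, each at an adjusted p of 0.4. Mvk had 148, 425 and 216 in HTS-3 livers, against 319, 281, 600 and 688 in TS-2 livers. Against NTS-1 the leading members were Insig1 (−0.59, adjusted p = 0.263), Mvd (−1.13, adjusted p = 0.512) and Hmgcs1 (−0.97, adjusted p = 0.561). Insig1, which like INSIG2 holds SCAP back, had 5123, 8516 and 5626 in HTS-3 livers, against 9837, 9116 and 9345 in NTS-1 livers, without overlap, where 5.82% of all genes did not overlap.

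TS-2 was also set against NTS-1 at each time after the single dose. No member passed limma's test at 8 h, 16 h or 72 h, beside 0.506%, 0.231% and 0.17% of all genes, and 0, 0 and 2 members had an unadjusted p under 0.05, beside 4.41%, 4.05% and 6.23%. At 8 h Stard4 had the smallest p, with 5720, 4819, 6587 and 5736 in TS-2 livers, against 4700, 4656 and 4698 in NTS-1 livers (log2 difference 0.28), followed by Lpin1 (0.72) and Nr1h3 (0.25), all at an adjusted p of 1. At 16 h it was Mylip, with 639, 613 and 485 in TS-2 livers, against 542, 289, 335 and 471 in NTS-1 livers (0.54), followed by Lpin1 (0.97) and Stard4 (0.24), again at an adjusted p of 1. At 72 h Abcg1 had 155, 182, 233 and 256 in TS-2 livers, against 321, 295 and 337 in NTS-1 livers. These Abcg1 values did not overlap, where 2.46% of all genes did not (−0.65 ± 0.21, adjusted p = 0.44), and Mylip (−0.89, adjusted p = 0.491) and Stard4 (0.32, adjusted p = 0.872) followed. At 72 h the 9 Kupffer cell and macrophage markers were all lower after TS-2 than after NTS-1, as were the 7 endothelial markers, none past the test. The first summed to 15220 to 17710 in TS-2 livers, against 24510 to 27730 in NTS-1 livers, with Marco under 32 in both. The endothelial sums were 11770, 10300, 2450 and 10450 in TS-2 mice 1 to 4, against 11740 to 13500 in NTS-1 livers, with Pecam1 under 32 in both, so that TS-2 mouse 3 was far below the rest. The part of these cells in the Abcg1 difference was not tested.

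**Figure D3:**
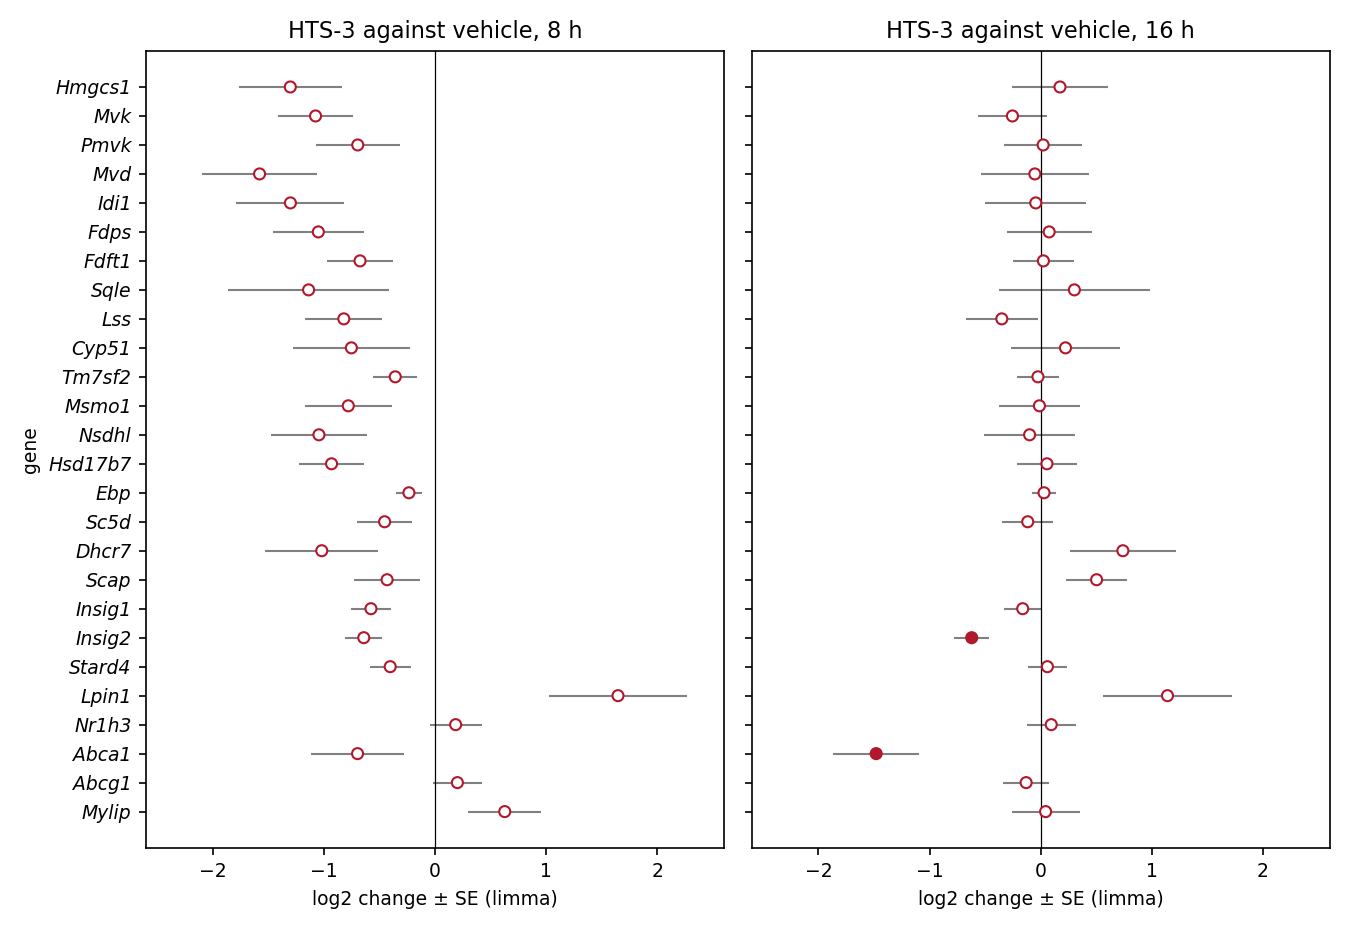
Log2 change of 26 members after HTS-3 against vehicle, with the limma standard error, at 8 h (left) and 16 h (right); filled points passed the test. At 8 h every enzyme lies left of 0 and none is filled, and at 16 h the enzymes lie on both sides of 0 while Insig2 (−0.62) and Abca1 (−1.48) are filled.

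At 16 h after HTS-3 the enzyme means stood about level with vehicle, while single livers lay on either side. Of 17, 9 had a higher and 8 a lower mean, with a median of 0.02, and none had an unadjusted p under 0.05, beside 18.4% of all genes. The enzyme medians of HTS-3 16 h mice 1 to 4 were 0.19, −0.01, −0.58 and 0.37. In mouse 3, 15 of 17 enzymes lay below every vehicle mouse, and in mouse 4, 12 lay above every one. Hmgcs1 had 19588, 16134, 9524 and 26142 in HTS-3 livers, against 16165, 12196 and 16620 in vehicle livers. Dhcr7 had 5541, 2877, 1577 and 9535 in HTS-3 livers, against 2642, 2110 and 2351 in vehicle livers. The HTS-3 livers lay on both sides of the vehicle range for both genes. The HTS-3 change at 16 h minus that at 8 h, tested as an interaction, was above 0 for 22 of 27 members and for all 17 enzymes, with a median of 0.70 over the members. That median was 0.28 without HTS-3 8 h mouse 1 and 0.036 with array weights. No member passed that test, beside 1.32% of all genes, and 5 had an unadjusted p under 0.05, beside 9.65% of all genes. Dhcr7 differed most, by 1.76 ± 0.70 (adjusted p = 0.322), and Hsd17b7 (0.99, adjusted p = 0.331) and Scap (0.93, adjusted p = 0.4) followed by p. The same test of NTS-1 had no member past the threshold, beside 0.0715% of all genes, and 0 with an unadjusted p under 0.05, beside 2.89%; Insig2 (0.38), Idi1 (0.81) and Mvd (0.74) led at an adjusted p of 1. For TS-2 the change at 72 h minus that at 8 h had none past the threshold, beside 0.044%, and 3 with an unadjusted p under 0.05, beside 2.85%: Insig2 (0.61), Mylip (−1.10) and Lpin1 (−2.08), all at an adjusted p of 1.

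Both members that passed the test at 16 h after HTS-3 fell, where 7.35% of all genes passed in either direction and 4.03% were lower. Insig2, the sterol sensor that holds SCAP in the endoplasmic reticulum, had 17423, 12602, 15838 and 9495 in HTS-3 livers, against 19217, 22140 and 20931 in vehicle livers. The groups did not overlap, where 5.37% of all genes were lower without overlap, HTS-3 mouse 4 was the lowest of all, and the log2 change was −0.62 ± 0.16, with a limma adjusted p of 0.0115. Abca1, which exports cholesterol to apolipoprotein A-I, had 894, 351, 1016 and 1064 in HTS-3 livers, against 1588, 2907 and 2090 in vehicle livers. Here too the groups did not overlap, and the log2 change was −1.48 ± 0.39 (adjusted p = 0.0157). The Insig2 call was lost without vehicle 16 h mouse 2 (−0.57, adjusted p = 0.0534) or HTS-3 16 h mouse 4 (−0.45, adjusted p = 0.0662). The Abca1 call was lost without vehicle 16 h mouse 2 (−1.26, adjusted p = 0.0902) or HTS-3 16 h mouse 2 (−1.11, adjusted p = 0.0724). It was also lost over the mean of all 3 Abca1 probe sets (−0.72, adjusted p = 0.349), of which 1 reached 32 on only 1 of 37 arrays. Over the mean of the probe sets reaching 32 the Abca1 call was lost as well (−0.99, adjusted p = 0.0813). Lpin1, next by p, was 1.14 ± 0.58 higher without passing (adjusted p = 0.307). With HTS-3 and vehicle livers fitted alone, neither Insig2 nor Abca1 passed, with adjusted p of 0.41 for Insig2 and 0.338 for Abca1.

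Against NTS-1 livers of 16 h the same 2 genes were the members past the test. Abca1 had 1759, 2367, 2073 and 2227 in NTS-1 livers, all above the HTS-3 livers, where 4.86% of all genes were lower without overlap. The log2 difference was −1.46 ± 0.36 (adjusted p = 0.00806). Insig2 had 19508, 18945, 17042 and 18613 in NTS-1 livers, of which the third lay below the highest HTS-3 liver, a difference of −0.46 ± 0.14 (adjusted p = 0.0435). The Insig2 call against NTS-1 was lost in 6 of 8 fits that left out a mouse (adjusted p up to 0.259) and with array weights (−0.34, adjusted p = 0.155), and the Abca1 call without HTS-3 mouse 2 (−1.08, adjusted p = 0.0503) and over the mean of all probe sets (adjusted p = 0.27). With the 2 groups fitted alone neither passed (adjusted p = 0.357 for Insig2 and 0.128 for Abca1). Of all genes, 9.65% passed in that comparison, and Lpin1 came next (1.11, adjusted p = 0.235). Against TS-2 livers of 16 h Abca1 alone passed, at −1.67 ± 0.39 (adjusted p = 0.00659), where 5.95% of all genes passed, and Insig2 (−0.44 ± 0.16, adjusted p = 0.105) and Scap (0.40, adjusted p = 0.633) followed. Abca1 had 2383, 2105 and 2832 in those TS-2 livers, and its call was lost over the mean of all probe sets (adjusted p = 0.146), over those reaching 32 (0.0505) and with the 2 groups fitted alone (0.244). Macrophages also express Abca1, and the 9 Kupffer cell and macrophage markers were all lower after HTS-3 at 16 h, 3 of them past the test. Their sum was 12450 to 19790 in HTS-3 livers, against 21400 to 46150 in vehicle livers, with Marco under 32 in both groups. Of 7 endothelial markers 6 were lower and 3 passed, with sums of 6482 to 11930 in HTS-3 livers against 11640 to 14390 in vehicle livers and Pecam1 under 32 in both. The 5 neutrophil markers were all lower, none past the test, with sums of 167.9 to 333.2 in HTS-3 livers, against 26930, 224.4 and 474.9 in vehicle mice 1, 2 and 3, and Mmp8 and Csf3r under 32 in both groups. Vehicle 16 h mouse 1 thus stood apart, and it also had the highest Kupffer cell and macrophage sum. Without it Insig2 changed by −0.68 (adjusted p = 0.0213) and Abca1 by −1.69 (adjusted p = 0.0186). The part of these cells in the Insig2 and Abca1 falls was not tested.

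At 16 h after TS-2 and NTS-1 and at 72 h after both, no member passed the test. The members' median lay between −0.10 and 0.06 over these 4 comparisons, where 0.0165% (TS-2, 16 h), 0.148% (NTS-1, 16 h), 0.137% (TS-2, 72 h) and 0% (NTS-1, 72 h) of all genes passed. At an unadjusted p under 0.05 there were 0 of 27 members for TS-2 at 16 h (4.35% of all genes), 0 for NTS-1 at 16 h (3.94%), 1 for TS-2 at 72 h (4.23%) and 0 for NTS-1 at 72 h (4.36%). Single livers differed at 16 h. In TS-2 mouse 1, 16 of 17 enzymes lay below every vehicle mouse, and in NTS-1 mouse 4, 14 did. The enzyme medians were −0.52, −0.03 and 0.34 in TS-2 mice 1 to 3. They were −0.09, 0.07, 0.07 and −0.49 in NTS-1 mice 1 to 4. At 16 h after TS-2 the smallest p were those of Lpin1 (log2 change 1.003), Mylip (0.39) and Sc5d (−0.29), and after NTS-1 those of Sc5d (−0.31), Fdft1 (−0.33) and Lss (−0.38), all at an adjusted p of 1. Lpin1 had 852, 300 and 641 in TS-2 livers, against 162, 444 and 283 in vehicle livers. Sc5d, the sterol C5 desaturase, had 6725, 8809, 8777 and 4754 in NTS-1 livers, against 9158, 8557 and 8572 in vehicle livers. Both pairs of groups overlapped. At 72 h after NTS-1 Abcg1 (0.32), Insig1 (−0.23) and Sc5d (−0.23) led, again at an adjusted p of 1, and Abcg1 had 321, 295 and 337 in NTS-1 livers, against 209, 324 and 244 in vehicle livers. At 72 h after TS-2 it was Mylip, then Abcg1 (−0.33) and Hsd17b7 (0.39), these 2 at an adjusted p of 1. Mylip, the lipoprotein receptor ligase, had the lowest change at that time. It had 214, 250, 101 and 232 in TS-2 livers, against 305, 433 and 269 in vehicle livers, without overlap, where 2.02% of all genes did not overlap (log2 change −0.80, adjusted p = 0.787). TS-2 72 h mouse 3, the lowest for Mylip, was the highest for Abca1 (7813, against 1607 to 3952 in vehicle livers) and for Sqle (3058, against 918 to 1228).

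In the vehicle mice Insig2 rose between 8 h and the later times, and Lpin1 and Stard4 were lower at the later times without passing the test. In vehicle livers Insig2 had 11352, 14005 and 9180 at 8 h, 19217, 22140 and 20931 at 16 h and 23046, 18958 and 20632 at 72 h. It was 1.83-fold higher at 16 h than at 8 h (log2 0.87 ± 0.17, adjusted p = 0.00578) and 1.83-fold higher at 72 h than at 8 h (adjusted p = 0.0061). Every later liver was above every 8 h liver, where 5.27% (16 h) and 5.79% (72 h) of all genes were higher without overlap. Insig2 was the one member past the test in either comparison, where 0.934% and 0.901% of all genes passed. With the 2 groups of each comparison fitted alone, the Insig2 call was lost (adjusted p = 0.406 at 16 h and 0.433 at 72 h). Without vehicle 16 h mouse 1, Insig2 differed by 0.92 between 16 h and 8 h (adjusted p = 0.013). No member passed between 72 h and 16 h, where 0.0275% of all genes passed, and 1 had an unadjusted p under 0.05, beside 5.07%. It was Lss, lanosterol synthase, with 2183, 1421 and 1293 at 72 h, against 2533, 2540 and 2800 at 16 h (log2 −0.72, adjusted p = 0.973). The 72 h livers were all below the 16 h ones, where 4.36% of all genes did not overlap, and Hsd17b7 (−0.56) and Abcg1 (−0.43) followed at an adjusted p of 1.

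Lpin1, a phosphatidate phosphatase of triglyceride synthesis and a known SREBP target that also answers to fasting, ran the other way. In vehicle livers it had 1551, 871 and 1971 at 8 h, 162, 444 and 283 at 16 h and 626, 279 and 262 at 72 h. The 8 h livers were apart from the later ones, by −2.34 ± 0.62 (log2) at 16 h (adjusted p = 0.0685) and −1.95 ± 0.62 at 72 h (adjusted p = 0.178). In these 2 comparisons 3.31% and 2.95% of all genes were lower without overlap. Lpin1 at 16 h passed with quantile normalization (adjusted p = 0.0463), with array weights (0.0479) and with genes filtered at an intensity of 32 (0.0333). Stard4 had 5171, 5547 and 6462 at 8 h, 3028, 3953 and 4380 at 16 h and 3955, 3539 and 3349 at 72 h in vehicle livers (log2 −0.61 at 16 h and −0.66 at 72 h, adjusted p = 0.149 and 0.103). Clock genes moved between the same livers: Arntl had 7.48 to 15.9 at 8 h, 403 to 555 at 16 h and 356 to 605 at 72 h. Dbp had 7477 to 9508 at 8 h, 78.4 to 112 at 16 h and 80.5 to 165 at 72 h. Hours after dosing and time of day cannot be told apart in this design.

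At 8 h the gapmer livers had a lower mean Insig2 and a higher mean Lpin1 than vehicle livers after all 3 gapmers, none of them past the test. Insig2 had 6262, 8148 and 7527 after HTS-3, 7748, 6865, 7556 and 6096 after TS-2, and 9922, 6830 and 6989 after NTS-1, against 11352, 14005 and 9180 in vehicle livers. Only 1 NTS-1 liver reached the vehicle range. The HTS-3 and TS-2 livers lay wholly below it, where 3.29% and 1.2% of all genes were lower without overlap. The log2 changes were −0.64 ± 0.17 after HTS-3 (adjusted p = 0.0839), −0.69 ± 0.16 after TS-2 (adjusted p = 0.0913) and −0.54 ± 0.17 after NTS-1 (adjusted p = 0.299). Without vehicle 8 h mouse 3, the lowest vehicle liver for Insig2, the changes after HTS-3 (−0.79, adjusted p = 0.0367) and TS-2 (−0.84, adjusted p = 0.0194) passed. Lpin1 had 7265, 4433 and 2527 after HTS-3, 4689, 3935, 3418 and 4467 after TS-2, and 1111, 3097 and 4480 after NTS-1, against 1551, 871 and 1971 in vehicle livers. All HTS-3 and TS-2 livers lay above all vehicle livers, where 3.61% and 2.05% of all genes were higher without overlap. The Lpin1 change was 1.64 ± 0.62 (log2) after HTS-3 (adjusted p = 0.289) and 1.56 ± 0.58 after TS-2 (adjusted p = 0.57). The 3 comparisons share the vehicle mice.

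**Figure D4:**
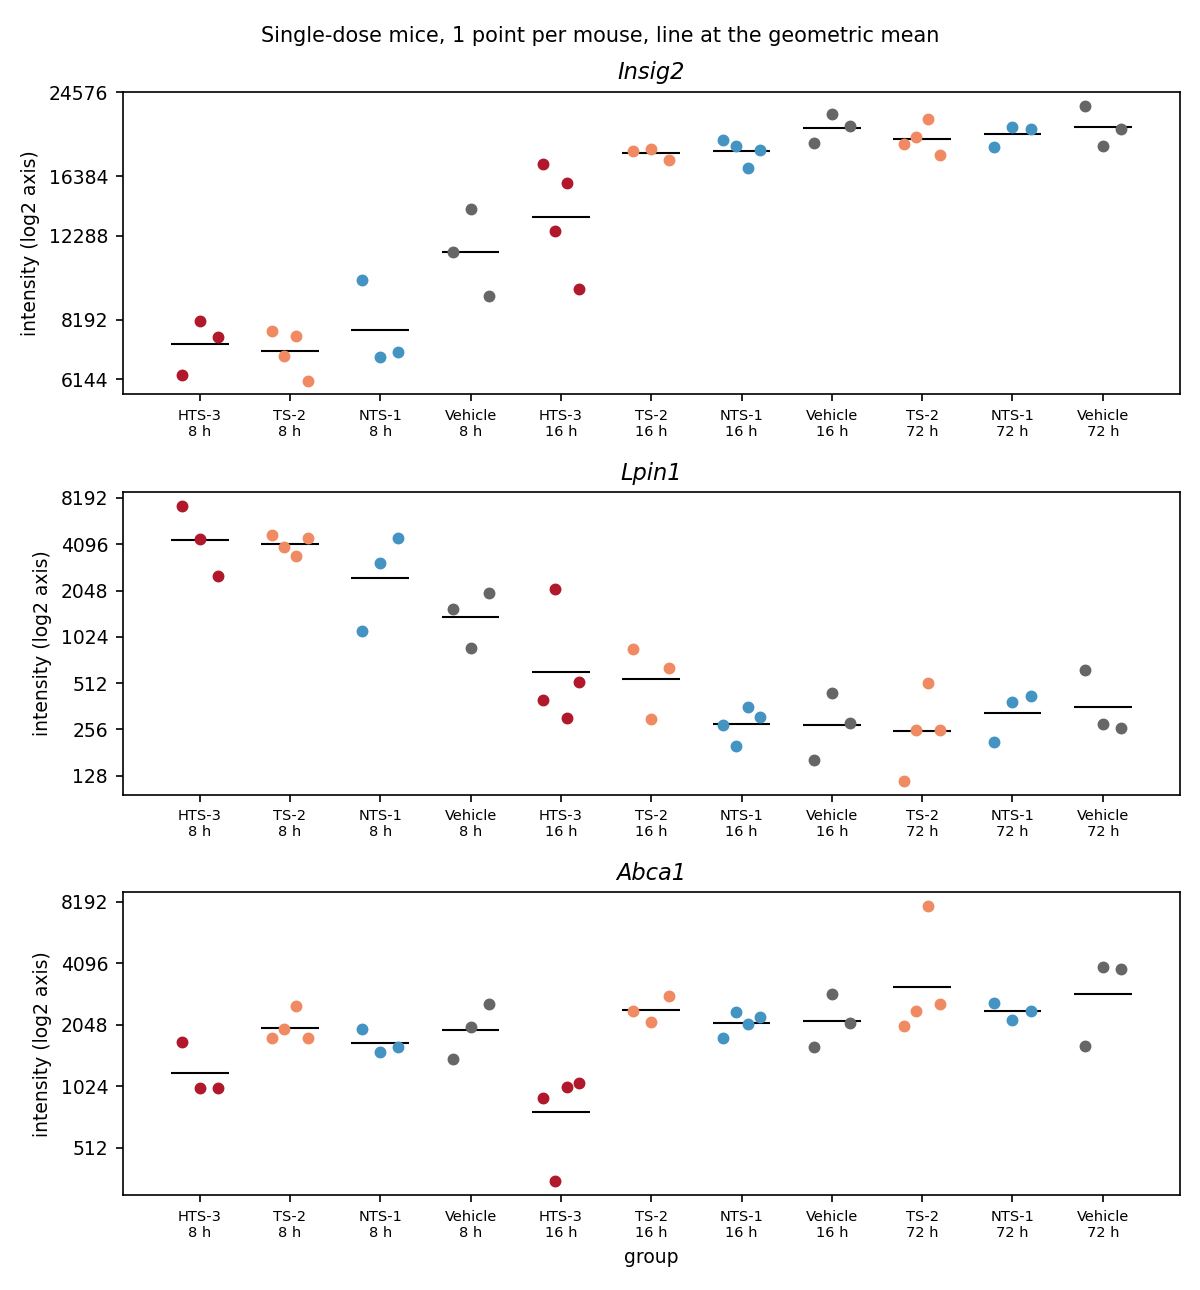
Intensity of Insig2, Lpin1 and Abca1 on log2 axes in each single-dose mouse, 1 point per mouse with a line at the geometric mean, gapmer groups left of vehicle within each time. Vehicle livers are lower for Insig2 and higher for Lpin1 at 8 h than later, at 8 h all HTS-3 and TS-2 livers lie below vehicle for Insig2 and above it for Lpin1 while 1 NTS-1 liver lies within the vehicle range for both, and the 4 HTS-3 16 h livers lie below all others of 16 h for Abca1.

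After 2 weeks of TS-2, 6 of 27 members passed the test, where 37.4% of all genes did, so the members did not stand out by their number. Pmvk, Sc5d, Insig1 and Mylip fell and Lpin1 and Abcg1 rose, where 14.6% of all genes fell and 22.8% rose. Of 17 enzymes, 12 had a lower mean and 5 a higher, with a median of −0.26. The enzyme medians of TS-2 mice 1 to 5 were 0.43, 0.59, 0.21, −0.56 and −1.56, against −0.33 to 0.38 in 10 vehicle mice. Mice 1 and 2 were above every vehicle mouse, mice 4 and 5 below every one, and the spread of enzyme levels was 0.97 (SD, log2) among TS-2 mice and 0.22 among vehicle mice.

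Pmvk, phosphomevalonate kinase, had 1144, 448, 837, 268 and 146 in TS-2 livers, against a lowest of 849, a median of 1450 and a highest of 2089 in vehicle livers. Of the 5 TS-2 livers 4 were below all vehicle livers, including mice 2 and 3, whose enzyme medians were above 0. The log2 change was −1.67 ± 0.33, with a limma adjusted p of 5.78e-04. Sc5d had 4392, 2794, 3379, 915 and 466 in TS-2 livers, against 2683 to 5652 in vehicle livers with a median of 4238. Only mice 4 and 5 were outside the vehicle range (log2 change −1.25 ± 0.38, adjusted p = 0.0127). The Sc5d call was lost without mouse 4 (adjusted p = 0.0541) or mouse 5 (−0.77, adjusted p = 0.0532). By contrast Fdft1 had 5165, 5543, 3778, 3052 and 1055 in TS-2 livers, against 1285 to 3550 in vehicle livers, with 3 mice above and 1 below them (log2 change 0.56 ± 0.29, adjusted p = 0.148). These values are of the brightest Fdft1 probe set, and the probe sets of Fdft1 gave opposite signs in this comparison. Fdps had 8176, 8587, 8883, 3301 and 694 in TS-2 livers, against a lowest of 2308, a median of 4724 and a highest of 6945 in vehicle livers, with mice 1 to 3 above them and mouse 5 below. Ebp had 8715, 7244, 9312, 5044 and 4281 in TS-2 livers, against a lowest of 6858, a median of 8198 and a highest of 9660 in vehicle livers, with mice 4 and 5 below them. Without TS-2 mouse 5, Fdft1, Sqle and Hsd17b7 were higher and passed (log2 changes of 0.96, 0.90 and 0.52), while Sc5d and Abcg1 no longer did.

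Of the sterol sensors, Insig1, a direct SREBP target, had 2567, 1560, 2104, 662 and 168 in TS-2 livers, against a lowest of 2041, a median of 2259 and a highest of 2775 in vehicle livers. Mouse 5 was lowest and mice 2 and 4 were also below the vehicle range (log2 change −1.24 ± 0.41, adjusted p = 0.0209), and without mouse 4 the call was lost (adjusted p = 0.0645). Without mouse 5 the Insig1 change was −0.60. Srebf2, readable here, had 230, 299, 243, 232 and 179 in TS-2 livers, against 176 to 300 in vehicle livers, and lay within the vehicle range in every TS-2 liver. Insig2 had 6927, 5788, 7637, 8395 and 8940 in TS-2 livers, against 5133 to 9428 in vehicle livers.

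On the LXR side, Mylip had 133, 163, 178, 160 and 293 in TS-2 livers, against a lowest of 289, a median of 326 and a highest of 408 in vehicle livers. All TS-2 livers but mouse 5 were below the vehicle range, a log2 change of −0.94 ± 0.15 (adjusted p = 8.6e-05). Abcg1, an exporter of cholesterol to high-density lipoprotein that macrophages and endothelium express strongly, had 114, 120, 169, 259 and 282 in TS-2 livers, against 99.1 to 165 in vehicle livers. It was above the vehicle range in mice 3, 4 and 5 (log2 change 0.54 ± 0.18, adjusted p = 0.0223), and the call was lost without mouse 4 (0.40, adjusted p = 0.096) or mouse 5 (0.37, adjusted p = 0.105). Lpin1 had 419, 1196, 372, 738 and 2323 in TS-2 livers, against a lowest of 131, a median of 202 and a highest of 937 in vehicle livers. Mice 2 and 5 were above every vehicle liver for Lpin1, at a log2 change of 1.71 ± 0.43 (adjusted p = 0.00375). Stard4 had 2194, 1994, 1719, 896 and 323 in TS-2 livers, against a lowest of 1160, a median of 1614 and a highest of 1935 in vehicle livers, with 2 mice above and 2 below. Abca1 had 2630, 1921, 2899, 1287 and 2943 in TS-2 livers, against a lowest of 1069, a median of 1936 and a highest of 2460 in vehicle livers, and 3 TS-2 mice were above the vehicle range (log2 change 0.29 ± 0.19, adjusted p = 0.248).

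Kupffer cell and macrophage markers summed to 2605 to 14860 in TS-2 livers, against 1950 to 7580 in vehicle livers, with 7 of 9 higher, 2 of these past the test and none under 32 in a whole group. Endothelial markers summed to 1268 to 3402 in TS-2 livers, against 3229 to 5602 in vehicle livers, with 6 of 7 lower and 5 past the test. Stellate cell markers summed to 5660 to 11350 in TS-2 livers, against 4199 to 7028 in vehicle livers, with 5 of 6 higher and 3 past the test. Dbp also differed within groups: it had 1952, 5106, 64.5, 3442 and 209 in TS-2 livers, against 50.2 to 120 in vehicle mice 1 to 5 and 194 to 1616 in vehicle mice 6 to 10. NTS-1 livers had 67.6 to 85.8. Against vehicle mice 6 to 10 alone, the Lpin1 change was 1.18 (adjusted p = 0.0948) and the Insig1 and Abcg1 calls were lost as well (adjusted p = 0.126 and 0.151). Against mice 1 to 5 alone the Sc5d and Insig1 calls were lost (adjusted p = 0.093 and 0.0811). The part of these cells and of sampling time in the changes was not tested.

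After 2 weeks of NTS-1, 2 of 27 members passed the test, both lower, where 4.91% of all genes passed and 3.04% were lower. Mylip had 249, 266, 219 and 163 in NTS-1 livers, all below the vehicle range of 289 to 408 (log2 change −0.64 ± 0.17, adjusted p = 0.0326). Nr1h3 had 514, 589, 596 and 615 in NTS-1 livers, all below the vehicle range of 631 to 799 (log2 change −0.28 ± 0.08, adjusted p = 0.0383). In this comparison 1.52% of all genes were lower without overlap. Scap was next by p, 0.30 higher without passing (adjusted p = 0.101). Mylip and Nr1h3 were called by a narrow margin: Mylip was lost in 7 and Nr1h3 in 10 of 14 fits that left out a mouse, with adjusted p up to 0.133 and 0.138. Against vehicle mice 1 to 5 alone neither passed, with adjusted p of 0.151 for Mylip and 0.245 for Nr1h3. Endothelial markers were lower here as well, 7 of 7 with 3 past the test, at sums of 2031 to 2964 in NTS-1 livers against 3229 to 5602 in vehicle livers, with Pecam1 under 32 in all NTS-1 livers.

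**Figure D5:**
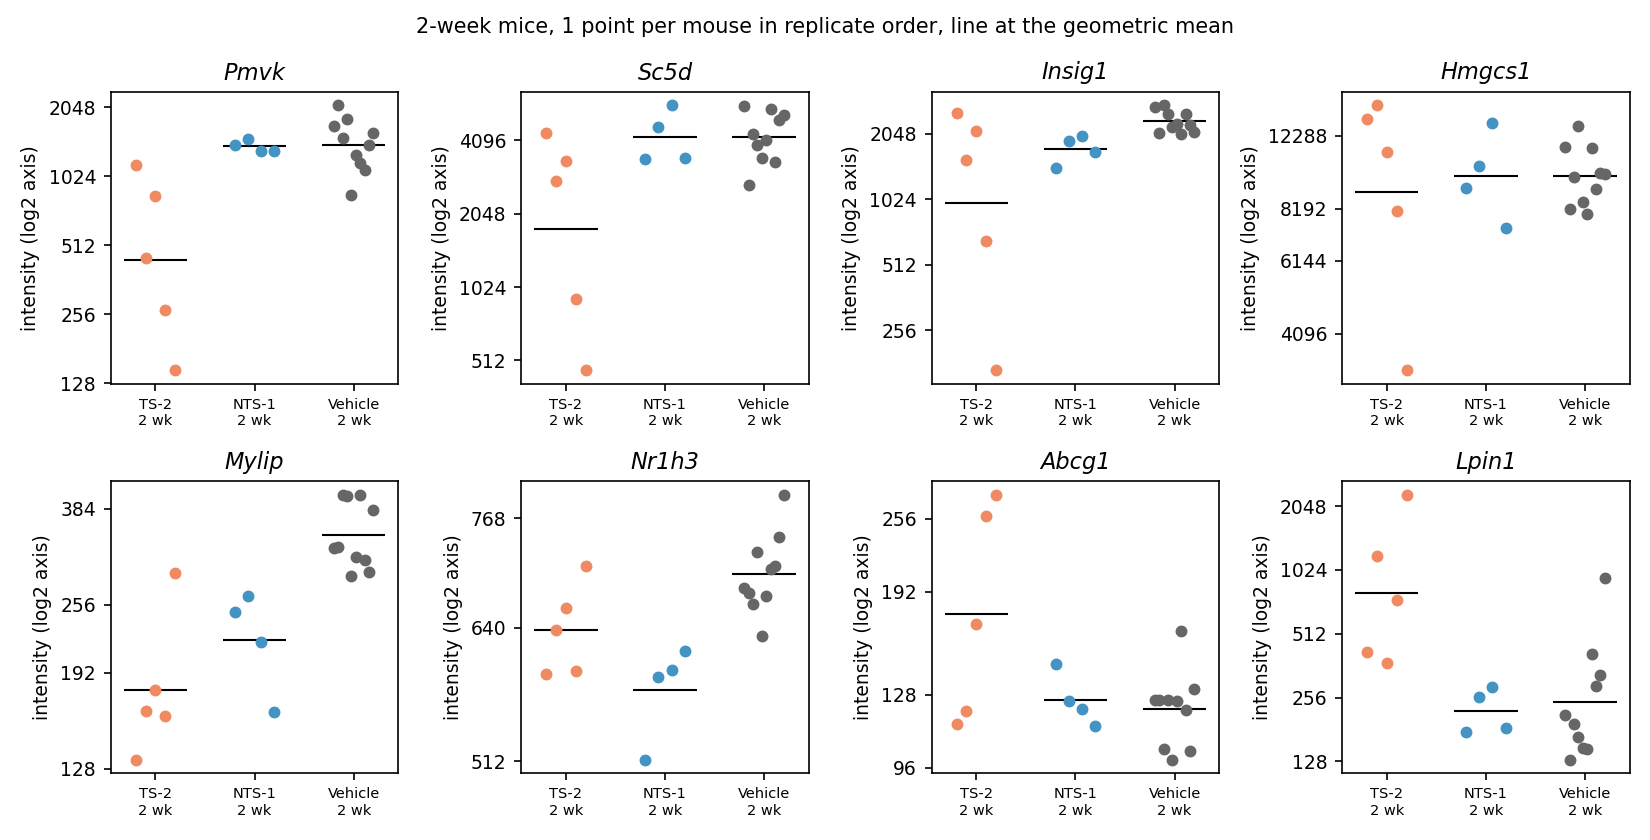
Intensity of 8 members on log2 axes in each 2-week mouse, 1 point per mouse in replicate order with a line at the geometric mean, TS-2 and NTS-1 left of vehicle. TS-2 mice 4 and 5 are the lowest points for Pmvk, Sc5d and Insig1 and the highest for Abcg1, and all 4 NTS-1 mice lie below vehicle for Mylip and Nr1h3.

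Set directly against NTS-1 at 2 weeks, TS-2 livers differed in 2 members, where 21% of all genes passed. Pmvk was lower, with every TS-2 liver below the NTS-1 range of 1314 to 1490 (log2 difference −1.65 ± 0.41, adjusted p = 0.00872), where 5.63% of all genes were lower without overlap. Lpin1 was higher, with every TS-2 liver above the NTS-1 range of 177 to 287 (1.85 ± 0.53, adjusted p = 0.0188), where 10.5% of all genes were higher without overlap. Sc5d came next (−1.25 ± 0.46, adjusted p = 0.0585). The Lpin1 call was lost without NTS-1 mouse 1 (adjusted p = 0.0557), NTS-1 mouse 4 (0.0541) or TS-2 mouse 5 (0.0539). Dbp, the clock output gene, had 64.5 to 5106 in these TS-2 livers and 67.6 to 85.8 in the NTS-1 livers. The part of sampling time in the Pmvk and Lpin1 differences was not tested. Mylip fell against vehicle after both gapmers; its TS-2 and NTS-1 livers overlapped, and the direct difference did not pass.

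Genes of the pathway beyond the 28 were read from a list of 19 others, which includes the SREBP-cutting proteases, sterol sensors, dolichol synthesis and bile acid genes. At 16 h after HTS-3, 1 of 17 measured passed, beside 7.35% of all genes. It was Dhdds, a subunit of the enzyme that makes dolichol from farnesyl units, which fell (log2 change −1.12 ± 0.21, adjusted p = 8.27e-04). Dhdds was the one to pass at 16 h also against NTS-1 (−1.24, adjusted p = 7.02e-05) and TS-2 (−1.41, adjusted p = 4.46e-05). Of all genes, 9.65% and 5.95% passed in these 2 comparisons. At 8 h after HTS-3 none of 17 passed, beside 0.588% of all genes. After 2 weeks of TS-2, 8 of 16 measured passed, beside 37.4% of all genes, 1 higher and 7 lower. Mbtps2, the second protease that frees SREBP, fell (−1.39 ± 0.21, adjusted p = 3.87e-05) while Mbtps1, the first, was 0.27 higher (adjusted p = 0.00686). The bile acid synthesis genes Cyp8b1 (−2.66 ± 0.67, adjusted p = 0.00393) and Cyp7a1 (−1.61 ± 0.56, adjusted p = 0.0282) fell, as did Abcg5 and Abcg8, which pair to form the biliary sterol exporter (−0.71 each, adjusted p = 0.00898 for Abcg5 and 0.00202 for Abcg8). Erlin1, which binds the SREBP, SCAP and INSIG complex in the endoplasmic reticulum (−0.34, adjusted p = 0.0326), and Rdh11, a retinol dehydrogenase (−0.81, adjusted p = 0.0336), fell as well. After NTS-1 at 2 weeks none of 16 passed, beside 4.91% of all genes. Between TS-2 and NTS-1 at 2 weeks 4 of 16 passed, beside 21% of all genes. Ggps1, which makes geranylgeranyl diphosphate, was higher after TS-2 (0.68, adjusted p = 0.0265). Mbtps2 (−1.17, adjusted p = 0.00415), Srebf1, the SREBP1 gene (−1.13, adjusted p = 0.0302), and Cyp8b1 (−3.03, adjusted p = 0.0144) were lower. The part of sampling time in these differences was not tested.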

How the data were processed

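Liver RNA of 56 mice (37 single-dose, 19 dosed for 2 weeks) was hybridised to 1-colour Affymetrix arrays, and each GEO sample is 1 mouse. The deposited values are intensities on a linear scale, which the authors normalized with RMA per the submitters' processing notes; which arrays were normalized together is not given there. The design assumed possibly log2 values, and the deposited intensities were turned into log2 here. The lowest value was 4.56 on all single-dose arrays and 6.1 to 6.92 on 2-week arrays, and 32.1 to 33.3% and 54.3 to 57.5% of probe sets reached 32, so the studies were fitted apart and no level was set across them. Intensity over background, not a read depth, and the number of arrays limit the precision.

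Of 45101 probe sets, 34958 carried 1 gene symbol in GEO's platform annotation, 932 several and 9211 none. For each gene the probe set with the highest mean was used, and genes past the 40th percentile on at least 3 arrays were tested (18194 single-dose, where none was removed, and 14454 at 2 weeks). limma 3.58.1 in R 4.3.3 (lmFit, eBayes) fitted all groups of a study together, with 95% intervals in the tables, 24 comparisons and Benjamini-Hochberg adjustment over all genes of each comparison. P-values measure spread between mice. On simulated data the fit of HTS-3 against vehicle at 8 h recovered 53% of genes changed 2-fold and 92% of genes changed 4-fold among 18194 genes, and that of TS-2 against vehicle at 2 weeks 95% and 99% among 14454. The simulated noise was independent between genes, with 1 spread per gene for all groups. The enzyme level at 2 weeks had an SD (log2) of 0.97 among TS-2 mice and 0.22 among vehicle mice. These rates therefore need not hold for the members. Markers and gene lists were written down by hand. The members, lists and named genes were chosen with earlier results of these data known. All 28 members could be named: in each comparison those past the test, or where fewer than 3 passed the 3 with the smallest p, with values by mouse for members past the test, for the smallest p in each comparison and for the brightest member of each role, and other pathway genes where they passed. Further values by mouse (Hmgcs1, Mvd, Idi1, Fdft1, Dhcr7, Sqle, Srebf2 and others) and the members shown as sequences were chosen after their values were seen. Replicate numbers pair no animals by the labels; in 1 of 21 comparisons (TS-2 at 8 h against vehicle) every pair's correlation was over 0.1 (0.102 to 0.439), and the replicate block changed no call there. Alternatives were another probe set rule, no filter or a filter at 32, quantile normalization, array weights, the compared groups alone, the replicate block, 2-week vehicle mice 1 to 5 or 6 to 10 alone, each mouse left out, and the HTS-3 mouse of unclear time left out or moved; the Actb 3'/5' ratio as covariate, the mean of probe sets reaching 32 and 4 more interactions were added after seeing the data. Promoters were read with pandas 2.3.3 in Python 3.11.15, and figures drawn with matplotlib 3.10.9. Some genes of the pathway are not reported here.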

Additional observations from a re-analysis of the deposited data

Results flagged for a closer look

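Of 185 sets of 4 to 10 mice (a member within a group), 11 held a mouse set apart from the rest by Dixon's test at its 95% value; chance marks about 1 in 20. NTS-1 16 h mouse 4 was low for Pmvk (2306, others 4187 to 4523), Msmo1 (8853, others 14209 to 15315) and Ebp (17935, others 21769 to 22335). HTS-3 16 h mouse 4 was high for Scap (7283, others 3864 to 4180) and Insig1 (11393, others 9373 to 9527), and HTS-3 16 h mouse 2 was low for Abca1 (351, others 894 to 1064). TS-2 72 h mouse 2 was high for Fdft1 (13012, others 9557 to 10065) and TS-2 72 h mouse 3 low for Mylip (101, others 214 to 250). TS-2 2 wk mouse 5 was low for Tm7sf2 (1291, others 3736 to 4662). Among 2-week vehicle mice, mouse 5 was low for Fdps (2308, others 4312 to 6945) and mouse 7 high for Dhcr7 (2219, others 909 to 1301).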

How the results depend on the processing

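No direction of a called member reversed under the alternatives run. Members' medians moved beyond the spread under array weights: −0.060 (HTS-3, 8 h), −0.16 (NTS-1, 8 h), 0.036 (HTS-3 against NTS-1, 8 h), 0.12 (vehicle, 16 h against 8 h), −0.026 (vehicle, 72 h against 8 h) and 0.036 (HTS-3 effect, 16 h against 8 h). Array weights gave 1 member past the test for HTS-3 against vehicle, TS-2 against vehicle and HTS-3 against NTS-1 at 8 h, 1 for HTS-3 against NTS-1 at 16 h, 2 for vehicle at 16 h against 8 h and 10 for TS-2 at 2 weeks. With probe sets of a gene averaged there was 1 for HTS-3 against vehicle and against NTS-1 at 16 h, and 2 for vehicle at 16 h and at 72 h against 8 h. Over probe sets reaching 32 the counts were 1 (HTS-3, 16 h), 2 and 2 (vehicle). Vehicle at 16 h against 8 h had 2 with a filter at 32 and with quantile normalization, and 3 with the Actb 3'/5' covariate, which gave 2 for HTS-3 against TS-2 at 16 h. Quantile normalization left 1 for NTS-1 at 2 weeks. With the compared groups alone there were 0 in each HTS-3 comparison at 16 h and in both vehicle comparisons with 8 h, 4 for NTS-1 and 1 for TS-2 against NTS-1 at 2 weeks. The replicate block left 0 for NTS-1 and 3 for TS-2 at 2 weeks and moved no other count by over 1.5 times; the numbers share no animal there. Vehicle mice 1 to 5 alone gave 0 for NTS-1, and vehicle mice 6 to 10 alone 1 for NTS-1 and 3 for TS-2. The compared groups alone and the vehicle subsets rest on fewer mice, and otherwise the cause was not tested. The share of all genes passing in these fits is not given here, so the counts do not compare members with other genes.

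Leaving out each mouse in turn gave medians of −0.35 to −0.12 (NTS-1, 8 h), −0.056 to 0.14 (NTS-1, 72 h), −0.10 to 0.21 (vehicle, 16 h against 8 h), −0.36 to 0.013 (vehicle, 72 h against 8 h) and 0.28 to 0.87 (HTS-3 effect). Counts past the test ranged over 0 to 9 (HTS-3, 8 h), 0 to 1 (TS-2, 8 h), 0 to 2 (HTS-3, 16 h), 0 to 3 (NTS-1, 2 weeks), 1 to 6 (TS-2 against NTS-1, 2 weeks), 0 to 1 and 0 to 3 (HTS-3 against NTS-1, 8 h and 16 h), and 0 to 3 and 1 to 2 (HTS-3 against TS-2, 8 h and 16 h). Apart from the fit without HTS-3 8 h mouse 2, the share of all genes passing in these fits is not given here. With the HTS-3 mouse of unclear time left out, the HTS-3 8 h median was −0.65 and Insig2 and Abca1 kept their calls at 16 h. At 2 weeks 6 of 15 members with several bright probe sets had probe sets of opposite sign after TS-2: Abca1, Cyp51, Fdft1, Insig2, Lss and Mvd. After NTS-1 there were 7 of 15: Abca1, Abcg1, Fdft1, Hsd17b7, Insig2, Sc5d and Stard4. Groups of 3 or 4 outbred mice, selected for liver change, limit the single-dose comparisons, and 4 or 5 gapmer mice a group those at 2 weeks.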

Other observations

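After 2 weeks of TS-2 the enzymes were spread widely among mice. Hmgcs1 had 13467, 14546, 11213, 8076 and 3344 in TS-2 livers, against 7968 to 12939 in vehicle livers, and Mvd had 455, 366, 454, 157 and 81 in TS-2 livers, against 131 to 385 in vehicle livers. For both genes TS-2 mouse 5 was below every vehicle liver while other TS-2 livers were above the vehicle range. Insig1 spanned 15.3-fold from the lowest to the highest TS-2 liver, against 1.36-fold among vehicle livers. In single-dose TS-2 livers of 8 h, Fdps had 5477, 6115, 13431 and 14746 and Hsd17b7 had 1188, 1077, 1659 and 1574, the same mice 1 and 2 being low.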
